A study of Mus musculus with 18 samples.

Results

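Antigen-activated CD4+ T cells with a low level of Hopx were compared with naive CD4+ T cells by total RNA sequencing, across every annotated feature. The comparison used 6 of the 18 libraries of the series, 3 Hopx-low and 3 naive, chosen by their titles. The 3 Hopx-high total RNA libraries entered the fit only to share its estimate of the spread, and the 9 small RNA libraries were not used. The cells came from lymph nodes and spleen of C57BL6 mice that had received, 5 days earlier and into the peritoneum, chimeric antibodies by which an antigen reaches dendritic cells. The labels give this treatment for the naive libraries too. They state neither an age, nor how the level of Hopx was told apart, nor whether the 3 libraries of a group came from separate animals. All p-values therefore measure the spread between libraries, part of which may be technical.

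A naive CD4+ T cell is a resting, recirculating cell that is kept quiet by factors such as Klf2 and maintained by interleukin 7. When its T cell receptor meets antigen on a dendritic cell, kinases and calcium switch on factors of the Nr4a, Egr, NFAT, AP-1 and NF-kappaB families, the cell re-enters the cell cycle, and feedback inhibitors and inhibitory receptors are induced with the activating ones. Antigen that reaches dendritic cells without inflammation can leave T cells tolerant, and Hopx, a small homeodomain protein that does not bind DNA, has been studied in such cells.

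A level is given throughout in bases covered per 1000000 covered bases of its library, with the libraries in the order of replicates 1, 2 and 3. Levels are not divided by gene length, so they compare a gene between libraries and not genes with each other. Differences are log2 fold changes of level + 1, Hopx-low minus naive, with their standard error (SE) and the Benjamini-Hochberg adjusted p of limma over all features tested (n = 3 libraries in each group). A gene is said to have risen or fallen, or to be called, when its adjusted p was below 0.05, and where it rose by a number, that number is its log2 fold change. Such folds understate the change of genes at low levels, and where a gene was listed at 0 in every naive library no fold is given. Each call was computed again without each of the 9 libraries in turn, and the calls lost in this way, among genes given with values, are named with the libraries (naive 1 stands for naive replicate 1) and the highest adjusted p. Of the other called members of a list or run, the text gives for most how many held. Calls lost under upper-quartile scaling, quantile normalization or totals without the gene Lars2 are named likewise. Calls lost on the deposited scale are not named one by one. Among them were Hopx (adjusted p = 0.12), Cxcr3 (adjusted p = 0.085) and Mki67 (adjusted p = 0.0995).

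The 6 libraries held 105 to 329 megabases of coverage. Hopx-low replicate 1 was the shallowest, and 18% of its bases lay on Lars2, a mitochondrial leucyl-tRNA synthetase gene, against 0.525% to 5.27% in the other 5. In both groups replicate 3 carried Xist, an RNA of female cells, and no Ddx3y, a Y-linked gene, and replicates 1 and 2 the reverse. Sex thus varied within each group, and its libraries did not all come from the same animal. Of the 8 CD4 T cell markers tested, which summed to levels of 3449 to 4998 in Hopx-low and 4360.0 to 5700.0 in naive libraries, 6 were not called, Cd5 was called higher and Cd3g, a chain of the CD3 complex, lower. Cd4 had 627, 1029 and 917 in Hopx-low and 1105, 953 and 1043 in naive libraries (adjusted p = 0.33), and Cd3e 389, 506 and 474 against 347, 415 and 423 (adjusted p = 0.48). The 2 CD8 markers summed to 52.6 to 84.0 in Hopx-low against 126 to 149 in naive: Cd8b1 was called lower and Cd8a was not called. B cell markers summed to 28.5 to 48.0 in Hopx-low against 44.9 to 78.4 in naive, monocyte and macrophage markers to 22.6 to 65.3 in Hopx-low against 31.9 to 71.6 in naive, neutrophil markers to 0 to 3.26 in Hopx-low against 0.620 to 8.33 in naive, platelet markers to 0.528 to 2.49 in Hopx-low against 3.74 to 4.03 in naive and erythroid markers to 37.1 to 66.6 in Hopx-low against 36.6 to 123 in naive. Plasma cell markers summed to 42.7 to 73.6 in Hopx-low against 33.5 to 63.9 in naive, stromal and endothelial markers to 124 to 188 in Hopx-low against 174 to 238 in naive, and gamma-delta and NKT markers to 0 to 3.47 in Hopx-low against 2.49 to 4.27 in naive. No member of these 8 lists was called. Dendritic cell markers summed to 99.8 to 125 in Hopx-low against 119 to 154 in naive, with Ccr9 called lower, and natural killer and innate lymphoid markers to 41.5 to 77.4 in Hopx-low against 1.65 to 5.61 in naive, with Eomes called higher; T cells can express both genes. The part of these cell types in the results was not tested. Cd3g (adjusted p up to 0.2 without naive 1 or 2 or Hopx-low 1 or Hopx-high 3), Cd8b1 (adjusted p = 0.053 without naive 3) and Ccr9 (adjusted p up to 0.13 without naive 1 or 3 or Hopx-low 1 or 3) lost their calls when 1 library was left out. Xcr1, Cd209a, S100a8, Mpo, Elane, Ncr1, Klra8, Klrk1, Pf4, Gp9 and Tnfrsf17, markers of dendritic, neutrophil, natural killer, platelet and plasma cells, were at 0 in all 6 libraries. In bulk RNA, fewer cells of a type and less RNA per cell cannot be told apart. Hopx had levels of 5.90, 7.49 and 7.59 in Hopx-low libraries, against 1.76, 0 and 1.15 in naive libraries (log2 fold change 2.14 ± 0.44 SE, adjusted p = 0.0025). The 3 Hopx-high libraries held 34.2, 26.1 and 23.1.

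Hopx-low cells differed from naive cells in 950 of 11320 features tested (8.39%), of which 538 were higher (4.75%) and 412 lower (3.64%). The rises were larger than the falls: 190 of the 538 (35.3%) exceeded a log2 fold change of 2, and 27 of the 412 (6.55%) lay under -2. The median was 1.65 among the calls higher, -1.13 among the calls lower and -0.16 over all features tested. Among the calls, 24 higher genes were listed at 0 in all 3 naive libraries, and no lower gene was at 0 in all 3 Hopx-low libraries. Below the median level of 23.9 there were 235 calls higher and 108 lower, and at or above it 303 and 304. The libraries of the groups did not overlap for 532 of the 538 and 406 of the 412, and for 29.2% of all features tested. Of the calls, 337 of the 538 higher and 115 of the 412 lower held whichever of the 9 libraries was left out. Single libraries moved the falls most: calls lower numbered 180 without Hopx-low replicate 1, 174 without naive replicate 1, 243 without naive replicate 2 and 593 without Hopx-high replicate 2, while calls higher numbered 573, 402, 432 and 576. With replicates 1 and 2 alone, which share the Xist and Ddx3y pattern, 322 were higher and 175 lower. Replicate 3 alone leaves 1 library a group and gives no test.

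**Figure D1:**
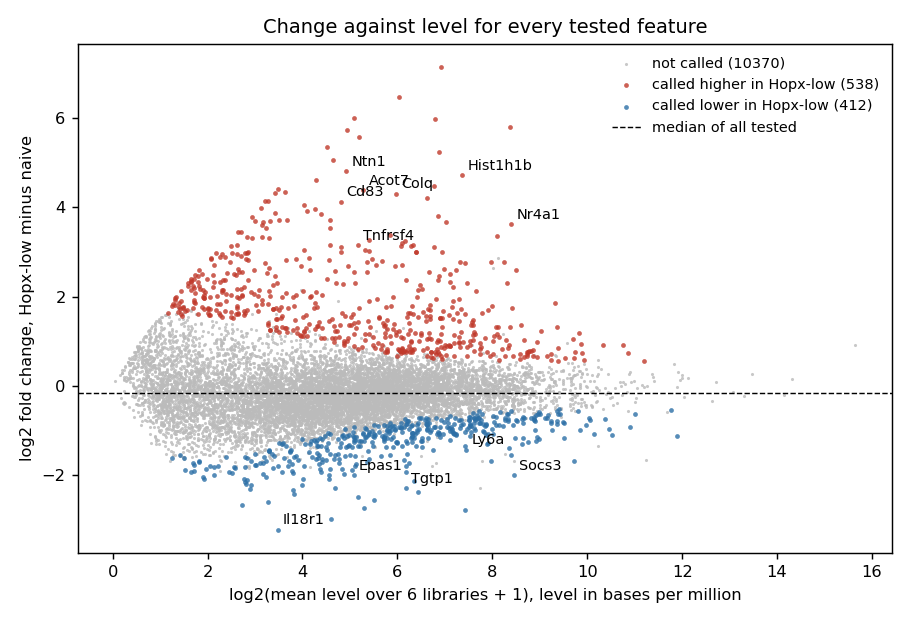
Each point is 1 tested feature. The horizontal axis is the log2 of its mean level over the 6 libraries plus 1 and the vertical axis is the log2 fold change, Hopx-low minus naive, with the 538 calls higher in red, the 412 calls lower in blue, the rest in grey and the median of -0.16 dashed. Rises reach 7.13 and falls -3.21, and the falls crowd at higher levels.

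Among the genes at or above the median level, the 20 largest rises ran over log2 fold changes of 3.36 to 7.13 and the 20 largest falls over -2.78 to -1.70. The rises were of mixed kinds: 5 were histone genes, and secreted or surface proteins, metabolic enzymes and T cell factors made up the rest. Ntn1, netrin-1, a secreted guidance protein, measured 62.0, 60.4 and 49.4 in Hopx-low cells and 0.849, 2.12 and 0.545 in naive cells (log2 fold change 4.81 ± 0.32 SE, adjusted p = 2.1e-10). For Colq, the collagen-like tail subunit of acetylcholinesterase, the Hopx-low libraries gave 99.0, 149.9 and 104, against 3.68, 7.27 and 4.36 in the naive libraries (log2 fold change 4.3 ± 0.26 SE, adjusted p = 8.0e-11). Acot7, a hydrolase that cleaves acyl-coenzyme A, had levels of 71.4, 81.5 and 66.7 in Hopx-low libraries, against 2.18, 1.48 and 4.68 in naive libraries (log2 fold change 4.38 ± 0.31 SE, adjusted p = 7.1e-10). In each of the 3 every Hopx-low library exceeded every naive one. Below the median level the largest rises included genes that the naive libraries lacked. Pla2g4f, a cytosolic phospholipase A2, had levels of 16.5, 16.7 and 16.7 in Hopx-low libraries and was listed at 0 in all 3 naive libraries (adjusted p = 1.1e-07). Arhgap20, a GTPase-activating protein, had levels of 14.6, 23.6 and 19.8 in Hopx-low libraries and was listed at 0 in all 3 naive libraries (adjusted p = 8.9e-08). Bcat1, the cytosolic branched-chain aminotransferase, which starts the breakdown of leucine, isoleucine and valine, measured 11.8, 19.8 and 15 in Hopx-low cells and 0, 0.0948 and 0 in naive cells (log2 fold change 3.97 ± 0.42 SE, adjusted p = 5.7e-07). Endod1, which carries an endonuclease domain, was at 0 in 2 of the 3 naive libraries: it had 20.02, 16.9 and 30.6 in Hopx-low and 0, 0 and 0.450 in naive libraries (log2 fold change 4.33 ± 0.36 SE, adjusted p = 1.3e-08).

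The largest falls at or above the median level took in a hypoxia factor, a scaffold protein and an enzyme of glutathione metabolism. For Epas1, hypoxia-inducible factor 2 alpha, the Hopx-low libraries gave 11.5, 14.4 and 10.3, against 68.4, 31.8 and 60.2 in the naive libraries (log2 fold change -2.0 ± 0.39 SE, adjusted p = 0.0015). Fry, a large scaffold protein linked to the NDR kinases, had levels of 2.85, 13.2 and 10.1 in Hopx-low libraries, against 56.0, 33.2 and 34.1 in naive libraries (log2 fold change -2.27 ± 0.50 SE, adjusted p = 0.0053). Ggt5, a gamma-glutamyl transferase that acts on glutathione conjugates and leukotriene C4, measured 33.0, 34.9 and 35.9 in Hopx-low cells and 113, 120.3 and 115 in naive cells (log2 fold change -1.72 ± 0.25 SE, adjusted p = 5.7e-05). Every Hopx-low library of the 3 genes lay below every naive one. For Pydc3, a pyrin-domain protein of the interferon-inducible Ifi200 locus, the Hopx-low libraries gave 8.92, 17.4 and 16.7, against 49.4, 71.9 and 35.9 in the naive libraries (log2 fold change -1.80 ± 0.43 SE, adjusted p = 0.0093). Dntt, terminal deoxynucleotidyl transferase, which adds nucleotides at the joints of antigen receptor genes in developing lymphocytes, had levels of 1.70, 2.33 and 7.74 in Hopx-low libraries, against 22.6, 28.1 and 16.4 in naive libraries (log2 fold change -2.42 ± 0.51 SE, adjusted p = 0.003). The groups did not overlap for Pydc3 or Dntt. Dntt lay below the median level, as did Gm11346. Gm11346, a transcribed pseudogene, measured 2.07, 13.6 and 2.41 in Hopx-low cells and 39.5, 40.2 and 42.6 in naive cells (log2 fold change -2.96 ± 0.51 SE, adjusted p = 0.0004). Pydc3 (adjusted p up to 0.06 without naive 2 or Hopx-low 1) lost its call when 1 library was left out.

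**Figure D2:**
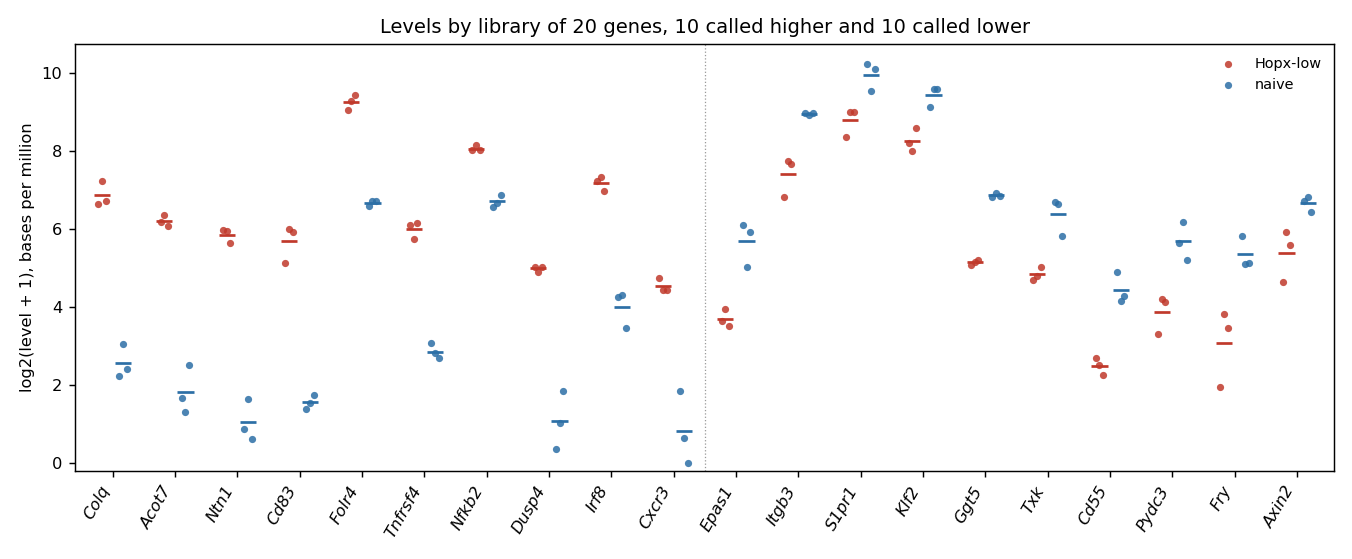
Each dot is 1 library's log2(level + 1) and each bar the mean of 3, with Hopx-low in red to the left of naive in blue. The 10 genes left of the dotted line were called higher and the 10 to its right lower, and in none of the 20 do the groups overlap.

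The lists of genes by function, 36 in all, differed widely in the share called. Histones, immediate early factors, cytokines and mitotic genes had the highest shares higher, and the GIMAP, Ly6, interferon and quiescence lists the highest shares lower. These are shares of tested members. Of the 52 cytokine genes only 14 reached the level needed for a test, and 23 were at 0 in all 6 libraries. Ribosomal proteins, oxidative phosphorylation, tRNA synthetases, chaperones and lipid genes stayed near or under the shares of 4.75% and 3.64% over all features tested.

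**Figure D3:**
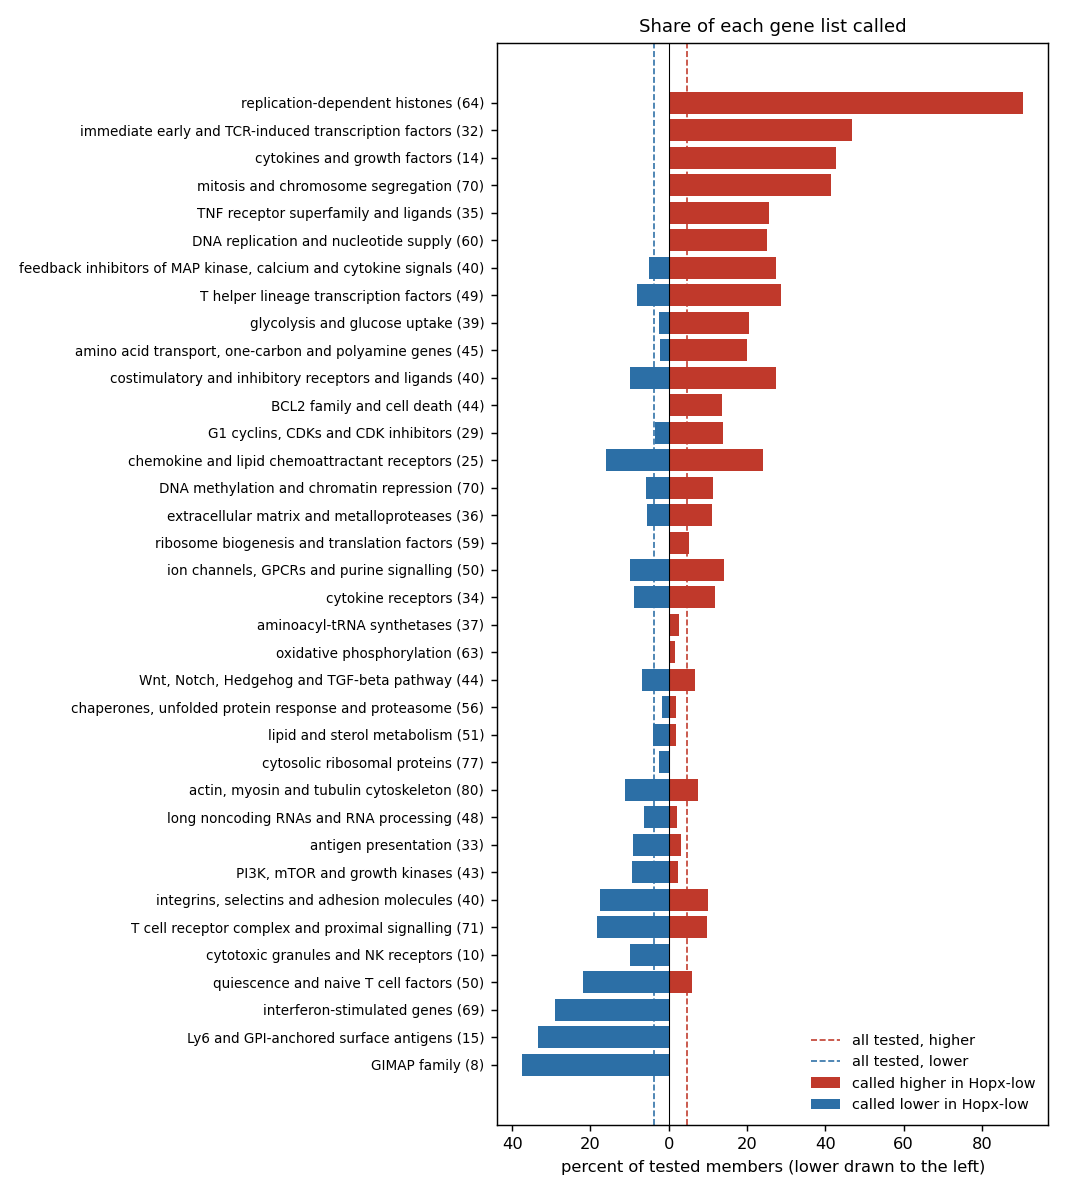
Bars give the percent of each list's tested members (number in brackets) called higher in Hopx-low, in red to the right, and called lower, in blue to the left. Dashed lines mark the shares over all features tested, 4.75% higher and 3.64% lower, which the histone list exceeds most on the right and the 8-gene GIMAP list on the left.

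Transcription factors that T cell receptor signals induce were called higher in Hopx-low cells, from the Nr4a and Egr families to NF-kappaB subunits. Of 32 members tested, 15 were called higher, 0 lower and 17 in neither direction, and the median log2 fold change was 1.12. For Nr4a1, the orphan nuclear receptor Nur77, the Hopx-low libraries gave 578, 701 and 592, against 47.9, 57.8 and 45.0 in the naive libraries (log2 fold change 3.61 ± 0.19 SE, adjusted p = 6.6e-12). Nr4a3, another member of that family, had levels of 41.7, 46.5 and 41.7 in Hopx-low libraries, against 5.39, 1.05 and 1.90 in naive libraries (log2 fold change 3.72 ± 0.40 SE, adjusted p = 6.5e-07). Every Hopx-low library of both exceeded every naive one. Egr2, a zinc-finger factor of the Egr family, measured 143, 147 and 155 in Hopx-low cells and 16, 21.1 and 16.1 in naive cells (log2 fold change 3.0 ± 0.22 SE, adjusted p = 1.1e-09). For Egr1, the founding member of the family, the Hopx-low libraries gave 296, 403 and 399, against 99.5, 109.7 and 125 in the naive libraries (log2 fold change 1.70 ± 0.19 SE, adjusted p = 1.1e-06). Nab2, a corepressor that binds Egr proteins and is itself an Egr target, had levels of 377, 544 and 489 in Hopx-low libraries, against 159, 217 and 182 in naive libraries (log2 fold change 1.33 ± 0.18 SE, adjusted p = 1.8e-05). The NF-kappaB members that were called included both subunits of the non-canonical pathway. Nfkb2, the precursor p100 of p52, measured 258, 284 and 258 in Hopx-low cells and 93.6, 101 and 117 in naive cells (log2 fold change 1.35 ± 0.17 SE, adjusted p = 8.5e-06). For Relb, the partner of p52, the Hopx-low libraries gave 176, 213 and 248, against 60.7, 82.3 and 80.4 in the naive libraries (log2 fold change 1.5 ± 0.20 SE, adjusted p = 1.2e-05). Batf, an AP-1 factor that binds DNA with Irf4, rose by 1.76 (adjusted p = 1.8e-05), Irf4 by 4.20, Bhlhe40 by 3.95 and Egr3 by 3.0. Myc and Nfkb1, which encodes the p105 precursor of p50, rose by 1.17 and 1.01, and Fosl2 and Nfatc1 completed the 15. Of the 15 calls higher, 13 held whichever of the 9 libraries was left out. Fos, the classical immediate early AP-1 gene, had levels of 91.6, 255 and 428 in Hopx-low libraries, against 86.6, 109 and 159 in naive libraries (log2 fold change 0.91 ± 0.62 SE, adjusted p = 0.44). Jun, its partner, measured 319.8, 837 and 1229 in Hopx-low cells and 720.1, 859.6 and 920.3 in naive cells (log2 fold change -0.26 ± 0.52 SE, adjusted p = 0.81). The Hopx-low libraries of Fos and Jun spread widely, with replicate 1 lowest in both. Fosl2 (adjusted p up to 0.11 without naive 1 or 2 or Hopx-low 2 or 3) and Nfatc1 (adjusted p up to 0.13 without naive 2 or Hopx-low 2 or 3) lost their calls when 1 library was left out.

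Inhibitors that act back on these signals were also called mainly higher. Of 40 members tested, 11 were called higher, 2 lower and 27 in neither direction, and the median log2 fold change was 0.26. For Nfkbid, the nuclear IkappaB protein IkappaBNS, the Hopx-low libraries gave 269, 385 and 327, against 66.5, 69.6 and 85.9 in the naive libraries (log2 fold change 2.12 ± 0.19 SE, adjusted p = 3.8e-08). Nfkbie, an inhibitor that holds NF-kappaB in the cytoplasm, had levels of 125, 228 and 225 in Hopx-low libraries, against 81.3, 88.4 and 119.5 in naive libraries (log2 fold change 0.96 ± 0.23 SE, adjusted p = 0.0079). Dusp4, a nuclear phosphatase of MAP kinases, measured 31.7, 29.0 and 31.8 in Hopx-low cells and 0.291, 1.03 and 2.59 in naive cells (log2 fold change 3.91 ± 0.38 SE, adjusted p = 1.1e-07). For Spry1, a Sprouty inhibitor of Ras to MAP kinase signals, the Hopx-low libraries gave 10.6, 17.4 and 19, against 1.12, 0 and 0 in the naive libraries (log2 fold change 3.66 ± 0.45 SE, adjusted p = 4.8e-06). Rgs16, which shortens G protein signals from chemoattractant receptors, had levels of 22.9, 17.8 and 20.2 in Hopx-low libraries and was listed at 0 in all 3 naive libraries (adjusted p = 7.0e-08). The groups of Nfkbid, Dusp4, Spry1 and Rgs16 did not overlap. Dusp6 and Dusp2 rose by 1.45 and 0.98 and Rgs3 by 1.2. Socs3, an inhibitor of cytokine receptor signals, was called lower with a log2 fold change of -2.0. Of the 11 calls higher 7, and of the 2 calls lower 1, held whichever of the 9 libraries was left out. Nfkbie (adjusted p up to 0.061 without Hopx-low 2 or 3) lost its call when 1 library was left out. Feedback inhibitors called higher numbered 7 without Hopx-low 2 or 3 or with replicates 1 and 2 alone.

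Members of the T cell receptor machinery were called in both directions. Of 71 members tested, 7 were called higher, 13 lower and 51 in neither direction, and the median log2 fold change was -0.33. Without Hopx-low replicate 1 the order turned, to 8 higher and 7 lower. The receptor's first kinases and adaptor were not called. Lck, the Src kinase bound to CD4, had levels of 2226, 2415 and 2316 in Hopx-low libraries, against 1966, 2427 and 2715 in naive libraries (log2 fold change -0.02 ± 0.16 SE, adjusted p = 0.96). Zap70, the kinase that Lck activates, measured 1026, 1007 and 1046 in Hopx-low cells and 693, 865 and 896 in naive cells (log2 fold change 0.34 ± 0.15 SE, adjusted p = 0.19). Lat, the adaptor that Zap70 phosphorylates, had 907, 1063 and 1035 in Hopx-low and 914, 955 and 1146 in naive libraries. The libraries of Lck and Lat overlapped between groups. The falls lay in a set of kinases, Ras regulators and calcium genes. For Txk, a Tec family kinase, the Hopx-low libraries gave 25, 26.6 and 31.7, against 103, 98.4 and 55.8 in the naive libraries (log2 fold change -1.55 ± 0.32 SE, adjusted p = 0.0027). Rasa3, a Ras GTPase-activating protein, had levels of 228, 338 and 303 in Hopx-low libraries, against 765, 652 and 599 in naive libraries (log2 fold change -1.22 ± 0.19 SE, adjusted p = 8.4e-05). Rasgrp2, an exchange factor that activates Rap1, measured 328, 300.1 and 331 in Hopx-low cells and 571, 712 and 623 in naive cells (log2 fold change -0.98 ± 0.18 SE, adjusted p = 0.00094). The groups did not overlap in these 3. Tec, a kinase of the same family as Txk, had a log2 fold change of -1.98, Orai2, a calcium channel of the plasma membrane, -0.84, and Sit1, an inhibitory adaptor, -1.02. Negative regulators were called in both directions: Sit1, Rasa3 and the diacylglycerol kinase Dgka were among the falls, and others rose. For Dgkz, a diacylglycerol kinase that removes the second messenger of Ras activation, the Hopx-low libraries gave 2205, 2342 and 2347, against 1253, 1439 and 1480.4 in the naive libraries (log2 fold change 0.73 ± 0.14 SE, adjusted p = 0.0014). Ubash3a, a phosphatase-like protein that damps receptor signals, had levels of 273, 368 and 313 in Hopx-low libraries, against 208, 153 and 221 in naive libraries (log2 fold change 0.72 ± 0.19 SE, adjusted p = 0.021). Cblb, a ubiquitin ligase that limits activation without costimulation, measured 132, 168 and 191 in Hopx-low cells and 119, 52.0 and 98.9 in naive cells (log2 fold change 0.92 ± 0.25 SE, adjusted p = 0.022). Vav2, an exchange factor that activates small GTPases, rose by 1.55. Of the 7 calls higher 2, and of the 13 calls lower 6, held whichever of the 9 libraries was left out. Ubash3a (adjusted p up to 0.13 without naive 2 or Hopx-low 2 or 3) and Cblb (adjusted p up to 0.16 without naive 2 or Hopx-low 2 or 3) lost their calls when 1 library was left out. T cell receptor genes called higher numbered 1 with replicates 1 and 2 alone and 2 without naive 2 or Hopx-low 2 or 3. T cell receptor genes called lower numbered 6 with replicates 1 and 2 alone and 7 without naive 1 or Hopx-low 1.

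Receptors and ligands of the TNF superfamily were called in 1 direction, and all 9 calls were higher. Of 35 members tested, 9 were called higher, 0 lower and 26 in neither direction, and the median log2 fold change was 0.14. For Tnfrsf4, OX40, a costimulatory receptor of activated T cells, the Hopx-low libraries gave 67.9, 53.0 and 70.3, against 7.38, 6.03 and 5.45 in the naive libraries (log2 fold change 3.15 ± 0.27 SE, adjusted p = 1.8e-08). Tnfsf4, its ligand OX40L, better known from antigen-presenting cells, had levels of 8.41, 15.9 and 15.6 in Hopx-low libraries and was listed at 0 in all 3 naive libraries (adjusted p = 1.0e-06). Both the receptor and its ligand were thus higher, the ligand at low levels. Tnfrsf18, GITR, had levels of 192, 164 and 173 in Hopx-low libraries, against 64.9, 59.5 and 57.1 in naive libraries (log2 fold change 1.53 ± 0.18 SE, adjusted p = 3.2e-06). Tnfsf14, LIGHT, the ligand of the herpesvirus entry mediator, measured 11, 15.1 and 19 in Hopx-low cells and 0.474, 1.56 and 0 in naive cells (log2 fold change 3.33 ± 0.43 SE, adjusted p = 8.1e-06). For Tnfsf11, RANKL, which acts on dendritic cells and on bone, the Hopx-low libraries gave 10.8, 8.83 and 8.36, against 0.780, 1.07 and 0.663 in the naive libraries (log2 fold change 2.49 ± 0.45 SE, adjusted p = 0.00074). Lta, Traf1 and Tnfrsf1b rose by 0.92 to 1.35, and Tnfrsf9, the receptor CD137, by 5.97.

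Costimulatory and inhibitory receptors were called higher more often than lower. Of 40 members tested, 11 were called higher, 4 lower and 25 in neither direction, and the median log2 fold change was 0.22. Folr4, folate receptor 4, a surface marker used for regulatory and anergic T cells, had levels of 532, 618 and 697 in Hopx-low libraries, against 94.6, 104 and 105 in naive libraries (log2 fold change 2.58 ± 0.17 SE, adjusted p = 1.9e-10). Cd83, an immunoglobulin-family marker of activation, measured 33.9, 63.3 and 59.4 in Hopx-low cells and 1.63, 1.93 and 2.36 in naive cells (log2 fold change 4.12 ± 0.31 SE, adjusted p = 1.9e-09). For Pdcd1lg2, PD-L2, a ligand of PD-1, the Hopx-low libraries gave 3.86, 10.4 and 5.80, against 0, 0 and 0.381 in the naive libraries (log2 fold change 2.70 ± 0.46 SE, adjusted p = 0.00037). Folr4 was also present in naive cells, while Cd83 was at 1.63 to 2.36 there. Pdcd1, PD-1 itself, had levels of 44.5, 54.6 and 73.4 in Hopx-low libraries, against 8.23, 9.74 and 8.59 in naive libraries (log2 fold change 2.54 ± 0.26 SE, adjusted p = 2.7e-07). Ctla4, an inhibitory receptor for CD80 and CD86, measured 38.2, 39.9 and 31.8 in Hopx-low cells and 1.02, 0.785 and 0 in naive cells (log2 fold change 4.61 ± 0.36 SE, adjusted p = 3.4e-09). For Icos, a costimulator of follicular helper cells, the Hopx-low libraries gave 30.4, 47.6 and 55.8, against 16.3, 17.3 and 15.2 in the naive libraries (log2 fold change 1.36 ± 0.33 SE, adjusted p = 0.009). In the last 3 every Hopx-low library exceeded every naive one. Cd200, Cd5 and Cd6 rose by 1.05 to 2.57 and Lag3 by 5.35. Cd28, the main costimulatory receptor of naive T cells, was not called, with 87.0, 101 and 137 in Hopx-low and 128, 87.3 and 108 in naive libraries. The 4 calls lower included Cd53, a tetraspanin, with a log2 fold change of -1.10. Of the 11 calls higher 9, and of the 4 calls lower 0, held whichever of the 9 libraries was left out. Icos (adjusted p = 0.061 without Hopx-low 3) and Cd53 (adjusted p = 0.051 without naive 2) lost their calls when 1 library was left out. Costimulatory and inhibitory receptors called lower numbered 0 without naive 2, 1 without naive 1 or Hopx-low 1, 2 or 3 and 2 with replicates 1 and 2 alone.

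Cytokine genes of the effector T helper lines were at or near 0. Il4, Il10 and Il17a were at 0 in all 6 libraries, and Ifng too. Il2 stood at 0.143, 0.182 and 0 in Hopx-low and 0, 0.257 and 0 in naive libraries, and none of these passed the filter on low levels. Of 14 members tested, out of 52, 6 were called higher, 0 lower and 8 in neither direction, and the median log2 fold change was 0.68. A member at 0 in every naive library, such as Penk, could pass that filter only through Hopx-low or Hopx-high libraries. The share called is thus not a share of all cytokine genes. Penk, proenkephalin, the precursor of opioid peptides, had levels of 22.9, 19.8 and 9.69 in Hopx-low libraries and was listed at 0 in all 3 naive libraries (adjusted p = 1.9e-07). Pdgfb, a chain of platelet-derived growth factor, had levels of 9.94, 18.7 and 17.2 in Hopx-low libraries, against 0, 1.24 and 0 in naive libraries (log2 fold change 3.59 ± 0.44 SE, adjusted p = 4.7e-06). The naive libraries of both stood at or near 0. Ebi3, a subunit of the cytokines IL-27 and IL-35, measured 9.94, 6.32 and 7.09 in Hopx-low cells and 0, 0 and 0.427 in naive cells (log2 fold change 2.94 ± 0.42 SE, adjusted p = 4.0e-05). For Lif, leukaemia inhibitory factor, the Hopx-low libraries gave 17.7, 4.83 and 8.13, against 0, 0 and 0.423 in the naive libraries (log2 fold change 3.15 ± 0.48 SE, adjusted p = 9.6e-05). Mif, a cytokine that many cell types express, rose by 1.13. Of the 6 calls higher, 5 held whichever of the 9 libraries was left out.

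Cytokine receptors moved in both directions. Of 34 members tested, 4 were called higher (11.8%), 3 lower (8.82%) and 27 in neither direction, and the median log2 fold change was -0.11. The shares of all features tested were 4.75% and 3.64%. Il12rb1, the shared beta subunit of the IL-12 and IL-23 receptors, had levels of 55.2, 88.1 and 70.9 in Hopx-low libraries, against 19.2, 26.8 and 25.5 in naive libraries (log2 fold change 1.53 ± 0.24 SE, adjusted p = 0.00016). Il9r, the alpha chain of the IL-9 receptor, had levels of 2.09, 3.29 and 6.73 in Hopx-low libraries and was listed at 0 in all 3 naive libraries (adjusted p = 0.0026). Il2ra, CD25, the high-affinity chain of the IL-2 receptor, measured 17, 25.6 and 18.1 in Hopx-low cells and 4.93, 7.59 and 7.28 in naive cells (log2 fold change 1.48 ± 0.38 SE, adjusted p = 0.014). The 3 receptors did not overlap between the groups. The remaining call higher was Il2rb, the beta chain of the IL-2 receptor. Its log2 fold change was 5.37 to 6.05 over the 23 other settings that refit the genes, and it was called in each. For Il18r1, the binding chain of the IL-18 receptor, the Hopx-low libraries gave 0, 4.97 and 0.521, against 21.0, 16 and 18.3 in the naive libraries (log2 fold change -3.21 ± 0.59 SE, adjusted p = 0.00088). The Hopx-low libraries of Il18r1 all lay below the naive ones. Il6ra, the binding chain of the IL-6 receptor, had levels of 123, 127 and 147 in Hopx-low libraries, against 332, 216 and 248 in naive libraries (log2 fold change -0.98 ± 0.21 SE, adjusted p = 0.0032). Il7r, the receptor chain for the survival cytokine of naive cells, measured 6.03, 11.6 and 19.7 in Hopx-low cells and 72.8, 112 and 44.0 in naive cells (log2 fold change -2.56 ± 0.55 SE, adjusted p = 0.0056). For Il2rg, the common gamma chain, the Hopx-low libraries gave 265, 382 and 348, against 346, 304 and 388 in the naive libraries (log2 fold change -0.07 ± 0.19 SE, adjusted p = 0.86). The group ranges of Il6ra and Il7r did not overlap. Of the 4 calls higher 3, and of the 3 calls lower 2, held whichever of the 9 libraries was left out. Il2ra (adjusted p up to 0.086 without naive 1 or Hopx-low 2) and Il7r (adjusted p = 0.076 without Hopx-high 2) lost their calls when 1 library was left out. Cytokine receptors called higher numbered 2 with replicates 1 and 2 alone and 7 with quantile normalization.

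Receptors that steer migration also moved in both directions. Of 25 members tested, 6 were called higher, 4 lower and 15 in neither direction, and the median log2 fold change was 0.07. Cxcr3, a receptor for interferon-induced chemokines, had levels of 25.8, 20.8 and 20.5 in Hopx-low libraries, against 2.61, 0.569 and 0 in naive libraries (log2 fold change 3.71 ± 0.41 SE, adjusted p = 1.1e-06). Ccr8, a receptor found on regulatory and type 2 T cells, measured 19.4, 17.6 and 15.3 in Hopx-low cells and 0, 1.83 and 0 in naive cells (log2 fold change 3.70 ± 0.45 SE, adjusted p = 4.3e-06). For Ccr4, a receptor for CCL17 and CCL22, the Hopx-low libraries gave 14, 16.1 and 14.2, against 3.38, 1.26 and 5.05 in the naive libraries (log2 fold change 2.01 ± 0.42 SE, adjusted p = 0.0027). Ccr8 and Cxcr3 were close to 0 in naive cells. S1pr1, the sphingosine 1-phosphate receptor that lets T cells leave lymph nodes, had levels of 327, 509 and 515 in Hopx-low libraries, against 1201, 741 and 1104 in naive libraries (log2 fold change -1.17 ± 0.22 SE, adjusted p = 0.00087). Gpr183, EBI2, an oxysterol receptor that places lymphocytes within lymphoid tissue, measured 52.4, 90.9 and 81.0 in Hopx-low cells and 169, 154 and 159 in naive cells (log2 fold change -1.13 ± 0.25 SE, adjusted p = 0.0055). For Ccr7, the receptor that brings naive T cells into lymph nodes, the Hopx-low libraries gave 2222, 1999 and 2007, against 1825, 2303 and 2277 in the naive libraries (log2 fold change -0.03 ± 0.18 SE, adjusted p = 0.93). The groups overlapped for Ccr7. The prostaglandin E2 receptors Ptger4 and Ptger2 rose by 1.01 and 1.99, Cxcr5 by 5.23, and S1pr4 was called lower, with a log2 fold change of -0.72. Of the 6 calls higher 4, and of the 4 calls lower 3, held whichever of the 9 libraries was left out. Ptger4 (adjusted p = 0.055 without naive 2) and Ptger2 (adjusted p = 0.061 without naive 1) lost their calls when 1 library was left out. Chemoattractant receptors called lower numbered 2 with replicates 1 and 2 alone.

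Adhesion molecules were called in both directions. Of 40 members tested, 4 were called higher (10%), 7 lower (17.5%) and 29 in neither direction, and the median log2 fold change was 0.01. The shares of all features tested were 4.75% and 3.64%. Without Hopx-low replicate 1 there were 4 calls in each direction. Itgb3, the beta 3 integrin chain of the vitronectin receptor, had levels of 111, 212 and 202 in Hopx-low libraries, against 502, 485 and 498 in naive libraries (log2 fold change -1.55 ± 0.22 SE, adjusted p = 2.8e-05). L1cam, a neural cell adhesion molecule, measured 5.08, 12.1 and 7.44 in Hopx-low cells and 44.4, 36.8 and 29.0 in naive cells (log2 fold change -2.08 ± 0.39 SE, adjusted p = 0.00093). Both were lower in every Hopx-low library than in any naive one. Itgb7, a chain of the gut-homing integrin, had a log2 fold change of -0.88. For Cd44, the hyaluronan receptor that marks antigen-experienced T cells, the Hopx-low libraries gave 77.9, 138 and 106, against 43.7, 20.4 and 48.2 in the naive libraries (log2 fold change 1.55 ± 0.29 SE, adjusted p = 0.00093). Itgal, the alpha chain of LFA-1, rose by 0.92. Selp, P-selectin, had levels of 2.71, 5.13 and 4.20 in Hopx-low libraries and was listed at 0 in all 3 naive libraries (adjusted p = 0.0033). Of the 4 calls higher 3, and of the 7 calls lower 4, held whichever of the 9 libraries was left out. Adhesion molecules called lower numbered 4 without Hopx-low 1 or with replicates 1 and 2 alone.

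Factors of several helper lineages were called higher. Of 49 members tested, 14 were called higher, 4 lower and 31 in neither direction, and the median log2 fold change was 0.13. Irf8, an interferon regulatory factor of lymphoid and myeloid cells, had levels of 148, 159 and 124 in Hopx-low libraries, against 18.3, 18.9 and 9.99 in naive libraries (log2 fold change 3.16 ± 0.25 SE, adjusted p = 5.3e-09). Pou2af1, OBF-1, a coactivator of octamer factors best known in B cells, measured 65.4, 69.6 and 71.7 in Hopx-low cells and 9.27, 10.3 and 13.9 in naive cells (log2 fold change 2.54 ± 0.25 SE, adjusted p = 1.7e-07). For Ikzf4, Eos, an Ikaros family factor of regulatory T cells, the Hopx-low libraries gave 32.4, 60.6 and 54.7, against 7.77, 2.23 and 5.32 in the naive libraries (log2 fold change 3.11 ± 0.35 SE, adjusted p = 1.3e-06). None of the 3 had overlapping groups. Foxp3, the factor that defines regulatory T cells, had levels of 4.55, 16.4 and 8.48 in Hopx-low libraries, against 2.11, 0.767 and 1.39 in naive libraries (log2 fold change 2.04 ± 0.48 SE, adjusted p = 0.0078). Bcl6, the factor of follicular helper cells, measured 46.3, 95.6 and 83.1 in Hopx-low cells and 19, 16.6 and 18 in naive cells (log2 fold change 1.95 ± 0.27 SE, adjusted p = 2.4e-05). For Tbx21, T-bet, the factor of type 1 helper cells, the Hopx-low libraries gave 3.11, 7.53 and 4.27, against 0, 0.709 and 0.768 in the naive libraries (log2 fold change 1.98 ± 0.57 SE, adjusted p = 0.034). Foxp3, Bcl6 and Tbx21, factors of separate lineages, were thus all higher in these bulk libraries. Tox2, Id3 and Stat5a rose by 1.03 to 3.45, and Eomes and Ikzf2 by 5.73 and 5.57. Gata3, the factor of type 2 helper cells, had levels of 69.7, 112 and 87.5 in Hopx-low libraries, against 99.3, 92.7 and 106 in naive libraries (log2 fold change -0.17 ± 0.21 SE, adjusted p = 0.67). Prdm1, Blimp-1, which opposes Bcl6, measured 2.63, 2.50 and 4.20 in Hopx-low cells and 14.6, 9.82 and 8.09 in naive cells (log2 fold change -1.51 ± 0.46 SE, adjusted p = 0.041). Irf7, an interferon regulatory factor, had a log2 fold change of -1.13. Of the 14 calls higher 9, and of the 4 calls lower 2, held whichever of the 9 libraries was left out. Foxp3 (adjusted p = 0.069 without Hopx-low 2), Tbx21 (adjusted p up to 0.17 without naive 1, 2 or 3 or Hopx-low 2 or 3) and Prdm1 (adjusted p up to 0.22 without naive 1, 2 or 3 or Hopx-low 1, 2 or 3) lost their calls when 1 library was left out. Prdm1 lost its call with quantile normalization (adjusted p = 0.059). Lineage factors called higher numbered 9 with replicates 1 and 2 alone. Lineage factors called lower numbered 2 without naive 1 or Hopx-low 1 or with replicates 1 and 2 alone.

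Of the factors that keep naive T cells at rest, some fell, among them the transcription factors Klf2, Klf6, Klf13 and Satb1. Tcf7, Lef1 and Foxo1 were not called. Of 50 members tested, 3 were called higher, 11 lower and 36 in neither direction, and the median log2 fold change was -0.39. For Klf2, the Kruppel-like factor that maintains rest and drives S1pr1, the Hopx-low libraries gave 292, 256 and 385, against 559.7, 775 and 770.2 in the naive libraries (log2 fold change -1.18 ± 0.20 SE, adjusted p = 0.00043). Txnip, an inhibitor of thioredoxin and of glucose uptake, had levels of 434, 754 and 675 in Hopx-low libraries, against 1151, 1059 and 1416 in naive libraries (log2 fold change -0.99 ± 0.19 SE, adjusted p = 0.0013). Cdkn2d, the CDK4 and CDK6 inhibitor p19, measured 85.4, 80.5 and 116 in Hopx-low cells and 167, 219 and 206 in naive cells (log2 fold change -1.07 ± 0.21 SE, adjusted p = 0.0013). In all 3 every Hopx-low library lay below every naive one. For Igfbp4, which binds insulin-like growth factors, the Hopx-low libraries gave 172, 304 and 292, against 416, 709 and 700.2 in the naive libraries (log2 fold change -1.25 ± 0.23 SE, adjusted p = 0.00099). Slfn1 and Slfn5 of the schlafen family had log2 fold changes of -1.03 and -1.52. Tcf7, TCF-1, had levels of 3388, 5261 and 4617 in Hopx-low libraries, against 3513, 3164 and 4516 in naive libraries (log2 fold change 0.24 ± 0.17 SE, adjusted p = 0.41). Lef1, its relative, measured 264, 355 and 381 in Hopx-low cells and 345, 253 and 368 in naive cells (log2 fold change 0.05 ± 0.19 SE, adjusted p = 0.91). For Foxo1, the factor upstream of Klf2 and Il7r, the Hopx-low libraries gave 284, 363 and 351, against 536, 331 and 442 in the naive libraries (log2 fold change -0.37 ± 0.19 SE, adjusted p = 0.25). Gfi1, a transcriptional repressor, and Zfp36l1, which promotes decay of AU-rich mRNAs, rose by 1.38 and 0.82. Of the 3 calls higher 2, and of the 11 calls lower 6, held whichever of the 9 libraries was left out. Quiescence factors called higher numbered 5 without Hopx-low 1 or with upper-quartile scaling or with quantile normalization or with totals without Lars2. Quiescence factors called lower numbered 7 without naive 1 or 3 or Hopx-low 1 or with replicates 1 and 2 alone.

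The GIMAP genes encode GTPases that support lymphocyte survival and lie side by side. Of 8 members tested, 0 were called higher, 3 lower and 5 in neither direction, and the median log2 fold change was -0.77. Gimap9 had levels of 18.3, 45.0 and 35.4 in Hopx-low libraries, against 74.4, 75.3 and 63.4 in naive libraries (log2 fold change -1.17 ± 0.31 SE, adjusted p = 0.019). Gimap4 measured 4.38, 12.9 and 19.6 in Hopx-low cells and 34.7, 40.9 and 19.3 in naive cells (log2 fold change -1.43 ± 0.42 SE, adjusted p = 0.036). For Gimap8 the Hopx-low libraries gave 69.0, 141 and 125, against 242, 201 and 174 in the naive libraries (log2 fold change -0.93 ± 0.27 SE, adjusted p = 0.038). The groups did not overlap for Gimap9 and Gimap8 and overlapped for Gimap4. 4 of the 8 had no overlap between the groups, all lower in Hopx-low, against 18.2% of all features tested. Gimap9 (adjusted p up to 0.1 without naive 1 or 2 or Hopx-low 1), Gimap4 (adjusted p up to 0.19 without naive 1 or 2 or Hopx-low 1 or 2 or Hopx-high 3) and Gimap8 (adjusted p up to 0.2 without naive 1, 2 or 3 or Hopx-low 1 or Hopx-high 3) lost their calls when 1 library was left out. GIMAP genes called lower numbered 0 without naive 1 or 2 or Hopx-low 1, 1 without Hopx-high 3 and 5 without Hopx-high 2.

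Calls among interferon-stimulated genes were all lower in Hopx-low cells. Of 69 members tested, 0 were called higher, 20 lower and 49 in neither direction, and the median log2 fold change was -0.81. In 46 of the 69 the Hopx-low libraries all lay below the naive ones, against 18.2% of all features tested. The called genes were GTPases, helicases, antiviral enzymes and the Ifit genes. Tgtp1, an immunity-related GTPase, had levels of 11.3, 33.2 and 32.2 in Hopx-low libraries, against 121, 127 and 101 in naive libraries (log2 fold change -2.28 ± 0.33 SE, adjusted p = 3.7e-05). Tgtp2, its near-identical neighbour, whose coverage cannot be told apart from it with certainty, measured 24.8, 34.6 and 34.5 in Hopx-low cells and 111, 136 and 86.3 in naive cells (log2 fold change -1.79 ± 0.26 SE, adjusted p = 4.2e-05). For Gbp7, a guanylate-binding protein, the Hopx-low libraries gave 15, 8.50 and 10.8, against 47.2, 49.5 and 34.6 in the naive libraries (log2 fold change -1.87 ± 0.36 SE, adjusted p = 0.0013). The groups did not overlap in these 3. Ifit3, a tetratricopeptide protein that binds viral RNA, had levels of 6.11, 2.60 and 4.81 in Hopx-low libraries, against 16.6, 39.4 and 19.7 in naive libraries (log2 fold change -2.21 ± 0.43 SE, adjusted p = 0.0016). Oas2, an oligoadenylate synthetase that activates RNase L, measured 11.8, 13.2 and 13.3 in Hopx-low cells and 53.5, 34.2 and 65.6 in naive cells (log2 fold change -1.87 ± 0.34 SE, adjusted p = 0.00064). For Samd9l, an antiviral factor that restricts translation, the Hopx-low libraries gave 10.3, 26.0 and 25.1, against 63.5, 75.7 and 46.4 in the naive libraries (log2 fold change -1.63 ± 0.38 SE, adjusted p = 0.0082). The Hopx-low values of each stayed under the lowest naive value. Ly6a and Ifit2 had log2 fold changes of -1.42 and -1.97. Of the 20 calls lower, 7 held whichever of the 9 libraries was left out. Irf9 and Stat2, which carry interferon signals, were not called. Irf9 had levels of 167, 196 and 204 in Hopx-low libraries, against 222, 209 and 237 in naive libraries (log2 fold change -0.24 ± 0.17 SE, adjusted p = 0.42). Stat2 measured 43.2, 59.5 and 71.4 in Hopx-low cells and 91.3, 60.4 and 70.7 in naive cells (log2 fold change -0.36 ± 0.25 SE, adjusted p = 0.4). Of the classical targets, Isg15 had 40.6, 42.4 and 47.9 in Hopx-low and 21.2, 27.0 and 58.7 in naive libraries (adjusted p = 0.47), and its groups overlapped. In 16 of the 20 called genes the lowest Hopx-low value was that of replicate 1, the library with 18% of its bases on Lars2. Samd9l (adjusted p = 0.061 without Hopx-low 1) lost its call when 1 library was left out. Interferon-stimulated genes called lower numbered 9 without Hopx-low 1, 10 with replicates 1 and 2 alone and 12 without naive 1, 2 or 3.

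**Figure D4:**
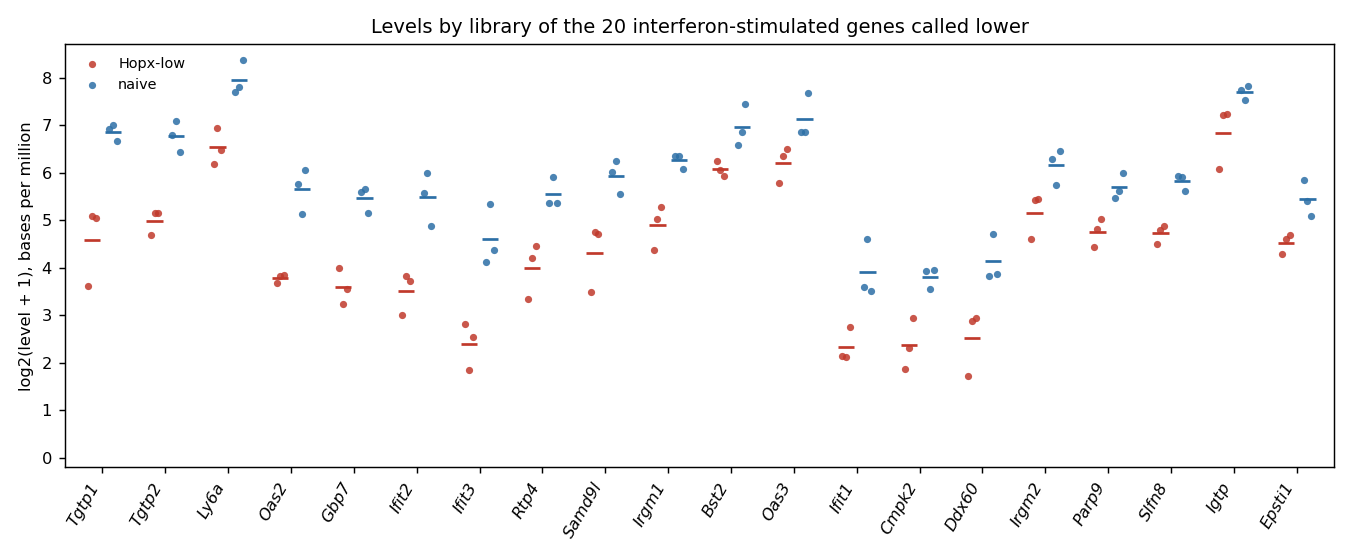
Each dot is 1 library's log2(level + 1) for the 20 interferon-stimulated genes called lower, in order of adjusted p, and each bar is the mean of 3 libraries, with Hopx-low in red to the left of naive in blue. Hopx-low lies below naive in every gene shown, and its lowest dot is most often replicate 1.

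The promoters of the called interferon genes were searched for the core of the interferon-stimulated response element, GAAA, any 2 bases and GAAA on either strand, in the window from 250 bases before to 50 after the annotated start (RefSeq, GRCm38.p6). It was found in 12 of the 16 called genes with a promoter in the table (75%), in 15 of 31 list members not called (48.4%), in 28 of 288 genes called lower in all (9.72%), in 3.66% of those called higher and in 3.88% of all tested genes with a promoter. Over all 32851 promoters of the table the share was 3.44%. Of the 28 genes called lower that hold it, 16 are not on the list. The windows of 3 strongly called genes are shown with the match in capitals, Tgtp1 and Tgtp2 (chr11:48992197-48992496, minus strand, and chr11:49064163-49064462, minus strand) because they are neighbouring copies, and Ifit3 (chr19:34583279-34583578, plus strand) because it holds 2 matches. Each line runs from 250 bases before the annotated start to 50 after it, 5′ to 3′ on the gene's strand.
Tgtp1: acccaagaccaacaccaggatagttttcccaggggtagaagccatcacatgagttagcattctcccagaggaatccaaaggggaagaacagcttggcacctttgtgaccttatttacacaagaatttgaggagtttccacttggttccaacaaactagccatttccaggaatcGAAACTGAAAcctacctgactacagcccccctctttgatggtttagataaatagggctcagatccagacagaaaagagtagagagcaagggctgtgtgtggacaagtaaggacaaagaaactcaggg
Tgtp2: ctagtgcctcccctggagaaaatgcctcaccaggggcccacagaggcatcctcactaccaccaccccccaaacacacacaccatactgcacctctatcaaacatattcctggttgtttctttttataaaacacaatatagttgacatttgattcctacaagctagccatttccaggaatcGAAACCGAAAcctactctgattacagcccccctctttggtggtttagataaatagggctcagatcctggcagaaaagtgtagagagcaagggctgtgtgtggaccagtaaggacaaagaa
Ifit3: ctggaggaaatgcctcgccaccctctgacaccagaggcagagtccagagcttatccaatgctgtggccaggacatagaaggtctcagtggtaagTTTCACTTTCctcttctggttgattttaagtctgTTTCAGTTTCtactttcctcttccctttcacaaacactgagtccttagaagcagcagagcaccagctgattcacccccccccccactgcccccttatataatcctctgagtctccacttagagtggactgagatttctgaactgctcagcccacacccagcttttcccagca
The match begins 77 bases before the annotated start in Tgtp1 and 70 before it in Tgtp2, within a stretch that both copies share. In Ifit3 both matches are on the opposite strand, as TTTC, any 2 bases and TTTC, and begin 156 and 122 bases before the start.

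Genes of mitosis were called higher in Hopx-low cells, and none lower. Of 70 members tested, 29 were called higher, 0 lower and 41 in neither direction, and the median log2 fold change was 1.15. For Espl1, separase, which cuts cohesin at anaphase, the Hopx-low libraries gave 35.1, 27.3 and 26.5, against 0.406, 2.13 and 0.443 in the naive libraries (log2 fold change 4.04 ± 0.36 SE, adjusted p = 2.8e-08). Ccnb2, a mitotic cyclin, had levels of 14, 10.3 and 11.2 in Hopx-low libraries, against 0, 0 and 1.0 in naive libraries (log2 fold change 3.34 ± 0.40 SE, adjusted p = 3.5e-06). Mki67, the proliferation antigen Ki-67, measured 8.84, 22 and 19.9 in Hopx-low cells and 1.01, 1.41 and 0 in naive cells (log2 fold change 3.31 ± 0.46 SE, adjusted p = 2.6e-05). The groups did not overlap in Espl1, Ccnb2 or Mki67. For Aurkb, the kinase of the chromosomal passenger complex, the Hopx-low libraries gave 8.90, 7.53 and 6.01, against 0.130, 0 and 0.308 in the naive libraries (log2 fold change 2.88 ± 0.40 SE, adjusted p = 2.8e-05). Birc5, survivin, a subunit of the same complex, had levels of 8.36, 5.22 and 5.65 in Hopx-low libraries and was listed at 0 in all 3 naive libraries (adjusted p = 8.5e-05). Ncapd2, a condensin subunit, had levels of 144, 169.9 and 139.9 in Hopx-low libraries, against 53.7, 59.6 and 45.1 in naive libraries (log2 fold change 1.51 ± 0.19 SE, adjusted p = 7.6e-06). The calls also held the regulators Foxm1 and Mybl2, with 2.51 and 2.55, the anaphase activator Cdc20 and the ligase Ube2c, with 2.07 and 2.98, the kinases Plk1 and Cdk1, with 2.46 and 2.38, and the kinesin Kif18b, with 3.68. Of the 29 calls higher, 21 held whichever of the 9 libraries was left out. Mitotic genes called higher numbered 19 with replicates 1 and 2 alone.

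Many mitotic promoters carry a cell cycle genes homology region, the element TTTGAA, which repressor and activator complexes use to time expression. Searched on either strand in the same windows, TTTGAA was found in 17 of 22 mitotic genes called higher (77.3%), in 23 of 39 not called (59.0%), in 21.1% of all genes called higher, in 13.9% of all tested genes and in 17.9% of all promoters. Short letters like these match often by composition, and a match is a description of the window. Espl1 (chr15:102296043-102296342, plus strand) and Ccnb2 (chr9:70421505-70421804, minus strand) are shown because their matches lie close to the annotated start.
Espl1: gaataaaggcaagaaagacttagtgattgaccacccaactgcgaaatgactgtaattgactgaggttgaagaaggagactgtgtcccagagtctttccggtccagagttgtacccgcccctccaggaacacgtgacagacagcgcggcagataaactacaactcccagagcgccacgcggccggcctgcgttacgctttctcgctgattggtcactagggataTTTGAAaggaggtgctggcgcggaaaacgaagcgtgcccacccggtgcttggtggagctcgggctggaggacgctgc
Ccnb2: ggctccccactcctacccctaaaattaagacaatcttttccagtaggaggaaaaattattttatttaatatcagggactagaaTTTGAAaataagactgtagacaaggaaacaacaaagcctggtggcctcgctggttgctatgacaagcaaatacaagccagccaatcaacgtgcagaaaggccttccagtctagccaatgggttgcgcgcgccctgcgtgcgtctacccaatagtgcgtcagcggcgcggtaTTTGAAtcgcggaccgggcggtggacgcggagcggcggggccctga
The match of Espl1 begins 27 bases before the start. Ccnb2 has a match 167 bases before it and another that begins just after it.

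Replication genes were also called higher, and none lower. Of 60 members tested, 15 were called higher, 0 lower and 45 in neither direction, and the median log2 fold change was 0.48. Uhrf1, which brings the maintenance methyltransferase to replicated DNA, measured 44.4, 59.0 and 43.6 in Hopx-low cells and 5.44, 4.37 and 5.80 in naive cells (log2 fold change 3.0 ± 0.26 SE, adjusted p = 2.6e-08). For Mcm5, a subunit of the replicative helicase, the Hopx-low libraries gave 332, 366 and 297, against 84.4, 102 and 135 in the naive libraries (log2 fold change 1.64 ± 0.18 SE, adjusted p = 1.3e-06). Tk1, thymidine kinase, had levels of 21.1, 16.2 and 22.4 in Hopx-low libraries, against 0, 2.76 and 0.0394 in naive libraries (log2 fold change 3.72 ± 0.45 SE, adjusted p = 3.2e-06). All 3 were higher in each Hopx-low library. Fen1 and Lig1, which process and join Okazaki fragments, rose by 1.04 and 1.24, Mcm3 and Gins2 of the helicase by 1.02 and 2.59, and Dctpp1 of nucleotide supply by 1.31. Of the 15 calls higher, 10 held whichever of the 9 libraries was left out. Pcna, the sliding clamp, measured 121, 159 and 202 in Hopx-low cells and 186, 189.6 and 173 in naive cells (log2 fold change -0.22 ± 0.20 SE, adjusted p = 0.57). The E2F site TTTNGCGC, on either strand, was found in 14 of 48 promoters of the list (29.2%) and in 4 of 14 of those called higher (28.6%), against 3.14% of all tested genes and 1.38% of all promoters. Mcm5 (chr8:75109259-75109558, plus strand) is shown because it holds the site on both strands, overlapping, 153 and 149 bases before the start.
Mcm5: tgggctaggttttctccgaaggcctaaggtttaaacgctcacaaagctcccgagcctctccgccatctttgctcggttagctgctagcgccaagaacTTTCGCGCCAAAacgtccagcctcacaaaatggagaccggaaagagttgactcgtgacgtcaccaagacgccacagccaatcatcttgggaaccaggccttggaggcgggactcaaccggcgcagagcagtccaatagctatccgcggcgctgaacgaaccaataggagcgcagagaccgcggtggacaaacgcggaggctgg
Of the G1 regulators, 4 of 29 tested rose, among them E2f1 by 1.73. E2f8, an E2F family repressor, had 4.89, 5.38 and 3.63 in Hopx-low libraries and was listed at 0 in all 3 naive libraries. Replication genes called higher numbered 9 with replicates 1 and 2 alone. G1 regulators called higher numbered 2 without Hopx-low 2 or with replicates 1 and 2 alone and 8 with quantile normalization.

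Replication-dependent histones, whose mRNAs lack a poly(A) tail and are made in S phase, were the list with the highest share called. Of 64 members tested, 58 were called higher, 0 lower and 6 in neither direction, and the median log2 fold change was 1.81. For Hist1h1b, a linker histone, the Hopx-low libraries gave 332, 299 and 318, against 8.86, 16.5 and 9.33 in the naive libraries (log2 fold change 4.71 ± 0.22 SE, adjusted p = 6.2e-13). Hist1h2bm, an H2B gene, had levels of 206, 198 and 237 in Hopx-low libraries, against 15, 15.4 and 12.8 in naive libraries (log2 fold change 3.80 ± 0.18 SE, adjusted p = 1.0e-12). Hist1h3c, an H3 gene, measured 245, 164 and 216 in Hopx-low cells and 4.97, 11.8 and 9.5 in naive cells (log2 fold change 4.47 ± 0.25 SE, adjusted p = 2.5e-11). In all 3 every Hopx-low library exceeded every naive one. Histone genes are near-copies of each other, so with no account of multiply matching reads the value of a single one is uncertain. They account for 48 of the 58 calls higher on chromosome 13, which at 13% of its tested features had the largest share of calls higher of any chromosome. There they stood in unbroken runs of 21, 18 and 9 neighbouring tested genes, all called higher (chr13:21715711-22043658, chr13:23531044-23692480 and chr13:23745042-23934156, GRCm38.p6). Of the 58 calls higher, 49 held whichever of the 9 libraries was left out.

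**Figure D5:**
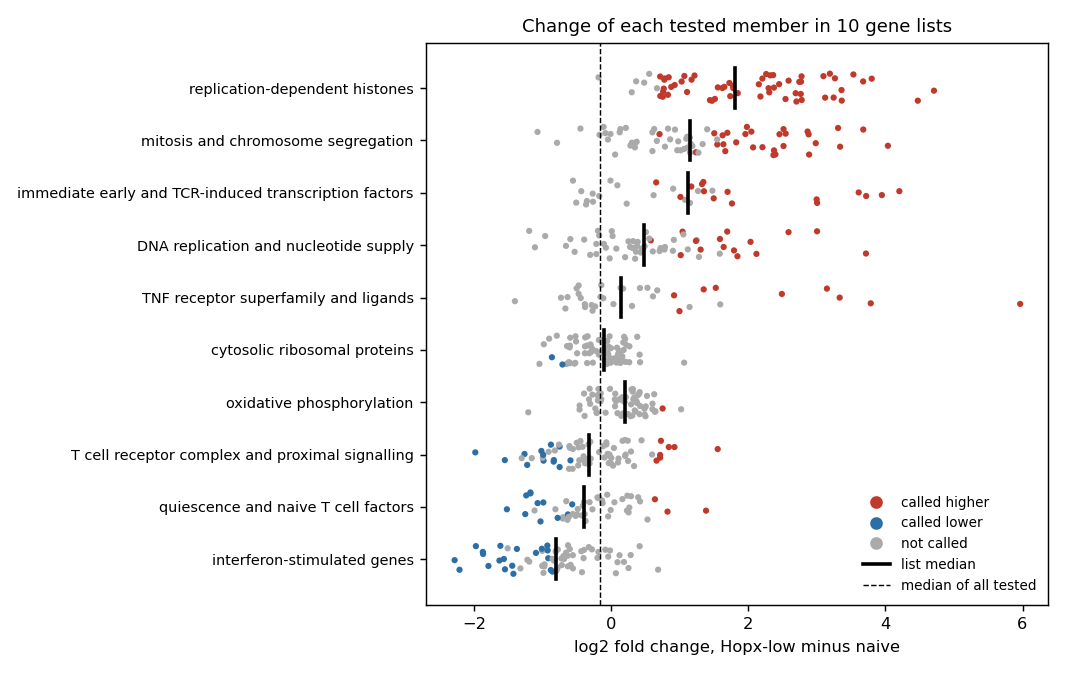
Each dot is 1 tested member of a list, placed at its log2 fold change, Hopx-low minus naive, in red if called higher, blue if called lower and grey if not called. Thick bars are list medians, from 1.81 for the histones to -0.81 for the interferon-stimulated genes, and the dashed line is the median of all features tested, -0.16.

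Survival and death genes gave 6 calls higher and 0 lower among 44 tested. For Bcl2l1, the survival factor Bcl-xL, the Hopx-low libraries gave 142, 209 and 185, against 38.3, 47.8 and 50.03 in the naive libraries (log2 fold change 1.94 ± 0.21 SE, adjusted p = 8.1e-07). Bmf, a BH3-only death factor, had levels of 73.3, 82.5 and 73.2 in Hopx-low libraries, against 35.1, 23.6 and 49.2 in naive libraries (log2 fold change 1.12 ± 0.25 SE, adjusted p = 0.0049). Bcl2a1b and Bcl2a1d, near-identical survival genes that cannot be told apart with certainty, rose by 2.81 and 2.32. Bcl2, the survival factor maintained by interleukin 7, measured 27.5, 57.7 and 46.6 in Hopx-low cells and 63.5, 53.9 and 57.2 in naive cells (log2 fold change -0.46 ± 0.28 SE, adjusted p = 0.34). Factors for survival and for death were thus both among the calls.

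In metabolism, calls lay in glycolysis and in amino acid and one-carbon genes. For glycolysis, 8 of 39 tested rose and 1 fell, against 4.75% and 3.64% of all features tested. In the glycolysis list, of the 8 calls higher, 5 held whichever of the 9 libraries was left out. For Tpi1, triosephosphate isomerase, the Hopx-low libraries gave 76.6, 74.7 and 76.5, against 29.4, 27.4 and 29.3 in the naive libraries (log2 fold change 1.37 ± 0.21 SE, adjusted p = 0.0001). Hk2, the inducible hexokinase, had levels of 8.52, 15.9 and 8.93 in Hopx-low libraries, against 1.21, 1.58 and 1.08 in naive libraries (log2 fold change 2.36 ± 0.42 SE, adjusted p = 0.00058). Pgam1, phosphoglycerate mutase, measured 65.5, 118 and 91.5 in Hopx-low cells and 39.4, 34.1 and 39.0 in naive cells (log2 fold change 1.23 ± 0.23 SE, adjusted p = 0.001). These are enzymes of the upper and lower pathway, and the groups did not overlap. Pkm, the muscle-type pyruvate kinase, and Tkt, transketolase, rose by 0.72 and 0.80, and Pdk1, an inhibitory kinase of pyruvate dehydrogenase, had a log2 fold change of -1.35. Of the 45 amino acid, one-carbon and polyamine genes tested, 9 rose and 1 fell. For Shmt1, the cytosolic serine hydroxymethyltransferase, the Hopx-low libraries gave 28.7, 66.6 and 61.8, against 3.24, 10.2 and 9.21 in the naive libraries (log2 fold change 2.68 ± 0.38 SE, adjusted p = 3.7e-05). Slc7a5, the large neutral amino acid transporter, had levels of 99.4, 125 and 124 in Hopx-low libraries, against 45.6, 56.6 and 73.1 in naive libraries (log2 fold change 1.0 ± 0.22 SE, adjusted p = 0.0047). Shmt2, the mitochondrial form, Pfas and Cad of nucleotide synthesis, and Srm of polyamine synthesis rose by 0.92 to 1.04. Glycolysis genes called higher numbered 5 without naive 1 or Hopx-low 2 and 14 with quantile normalization.

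Few members of the housekeeping lists were called. Of 63 oxidative phosphorylation genes tested, Atp5g3 rose (log2 fold change 0.75 ± 0.19 SE, adjusted p = 0.012) and none fell, with a list median of 0.20. In 15 of the 63 the Hopx-low libraries all lay above the naive ones, and in 1 below, against 10.9% and 18.2% of all features tested. The list summed to levels of 6782 to 7121 in Hopx-low and 4910 to 6136 in naive libraries. Of 77 cytosolic ribosomal protein genes, 2 were called lower and none higher, 0 of the calls held whichever of the 9 libraries was left out, and the median was -0.10. Vars, the valyl-tRNA synthetase, was the 1 call among 37 synthetases, with a log2 fold change of 0.82. Among 56 chaperone, unfolded protein response and proteasome genes, 1 was called higher and 1 lower, and neither call held whichever library was left out. Of 51 lipid genes, Scd2, a fatty acid desaturase, rose by 1.08, and Acss2, an acetyl-coenzyme A synthetase, had a log2 fold change of -1.16. Among 59 ribosome biogenesis and translation factors, 3 rose. In 19 of the 59 the Hopx-low libraries all lay above the naive ones, and in 2 below. Eif5a, the translation factor that carries hypusine, measured 713, 1087 and 1022 in Hopx-low cells and 283, 347 and 515 in naive cells (log2 fold change 1.32 ± 0.20 SE, adjusted p = 8.4e-05). Nop16, a nucleolar protein, rose by 1.17. In that list, of the 3 calls higher, 2 held whichever of the 9 libraries was left out. Atp5g3 (adjusted p up to 0.074 without naive 1 or Hopx-low 3) and Vars (adjusted p = 0.058 without naive 1) lost their calls when 1 library was left out. Ribosome biogenesis genes called higher numbered 6 without Hopx-low 1, 8 with upper-quartile scaling, 9 with totals without Lars2 and 10 with quantile normalization.

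Genes of growth signalling were called in both directions. Of 43 PI3K, mTOR and growth kinase genes tested, 1 rose (2.33%) and 4 fell (9.3%), against 4.75% and 3.64% of all features tested. For Pim2, a serine-threonine kinase that promotes survival, the Hopx-low libraries gave 156, 249 and 231, against 78.7, 82.4 and 142 in the naive libraries (log2 fold change 1.08 ± 0.23 SE, adjusted p = 0.0035). Sgk1, a kinase of the Akt family, had levels of 18.2, 38.5 and 34.3 in Hopx-low libraries, against 119, 112 and 106 in naive libraries (log2 fold change -1.92 ± 0.31 SE, adjusted p = 0.00016). Pik3r5, a regulatory subunit of PI3K, had a log2 fold change of -1.27. In the Wnt, Notch, Hedgehog and TGF-beta list, 3 of 44 rose and 3 fell, 6.82% each, not far above the shares of all features tested. Smo, the signal transducer of Hedgehog ligands, measured 38, 67.0 and 50.8 in Hopx-low cells and 14.7, 17.2 and 23.3 in naive cells (log2 fold change 1.44 ± 0.28 SE, adjusted p = 0.0013). For Axin2, a feedback inhibitor and target of Wnt signals, the Hopx-low libraries gave 24, 59.7 and 47.2, against 104, 112 and 86.1 in the naive libraries (log2 fold change -1.28 ± 0.28 SE, adjusted p = 0.0052). Smad7, a feedback inhibitor of TGF-beta signals, had levels of 217, 257 and 249 in Hopx-low libraries, against 369, 390.1 and 443 in naive libraries (log2 fold change -0.73 ± 0.17 SE, adjusted p = 0.0078). Wnt10a rose by 6.45 and Tgif1, a corepressor of Smad proteins, by 1.45. The groups of Smo, Axin2 and Smad7 did not overlap. Smad7 (adjusted p = 0.05036 without naive 3) lost its call when 1 library was left out. Wnt, Notch, Hedgehog and TGF-beta genes called higher numbered 5 without Hopx-low 1 or with upper-quartile scaling or with quantile normalization or with totals without Lars2. Wnt, Notch, Hedgehog and TGF-beta genes called lower numbered 1 without naive 3 or with replicates 1 and 2 alone.

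Calls among lipid-anchored surface antigens were all lower, and those among cytoskeletal genes went in both directions. Of 15 Ly6 and lipid-anchored antigens tested, 5 fell and none rose. Ly6a, Sca-1, measured 71.6, 123 and 88.5 in Hopx-low cells and 206, 224 and 333 in naive cells (log2 fold change -1.42 ± 0.23 SE, adjusted p = 0.00017). For Cd55, decay accelerating factor, which protects cells from complement, the Hopx-low libraries gave 5.47, 4.67 and 3.80, against 28.6, 16.8 and 18.4 in the naive libraries (log2 fold change -1.95 ± 0.40 SE, adjusted p = 0.0023). Ly6c1 had a log2 fold change of -2.78, and its close relative Ly6c2 may share reads with it. Of 80 actin, myosin and tubulin genes, 6 rose (7.5%) and 9 fell (11.2%), against 4.75% and 3.64% of all features tested. The order turned without Hopx-low replicate 1, to 6 higher and 3 lower, and the counts were the same without both Lars2-rich libraries (Hopx-low replicate 1 and Hopx-high replicate 3). Lmna, the A-type nuclear lamin, had levels of 24.6, 35.0 and 28.7 in Hopx-low libraries, against 5.97, 9.38 and 8.48 in naive libraries (log2 fold change 1.77 ± 0.29 SE, adjusted p = 0.0002). Flna, filamin A, an actin crosslinker, measured 767, 1076 and 967 in Hopx-low cells and 2051, 2149 and 1756 in naive cells (log2 fold change -1.09 ± 0.17 SE, adjusted p = 0.00013). For Vim, vimentin, an intermediate filament, the Hopx-low libraries gave 88.0, 132 and 140.0, against 217, 183 and 201 in the naive libraries (log2 fold change -0.76 ± 0.21 SE, adjusted p = 0.025). The groups did not overlap in the 3. In the cytoskeletal list, of the 6 calls higher 1, and of the 9 calls lower 3, held whichever of the 9 libraries was left out. Vim (adjusted p up to 0.11 without naive 1 or 3 or Hopx-low 1) lost its call when 1 library was left out. Lipid-anchored antigens called lower numbered 3 without Hopx-low 3. Cytoskeletal genes called higher numbered 1 without Hopx-low 3 and 2 without naive 1 or 2 or Hopx-low 2 or with replicates 1 and 2 alone. Cytoskeletal genes called lower numbered 3 without Hopx-low 1 and 5 without naive 1, 2 or 3 or with replicates 1 and 2 alone.

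Among channels, G protein-coupled receptors and purine signalling genes, 7 of 50 tested rose (14%) and 5 fell (10%), against 4.75% and 3.64% of all features tested. Adora2a, an adenosine receptor, which raises cyclic AMP and restrains T cells, had levels of 79.1, 95.7 and 84.8 in Hopx-low libraries, against 40.4, 57.5 and 46.4 in naive libraries (log2 fold change 0.84 ± 0.22 SE, adjusted p = 0.017). Gpr83, a receptor expressed by regulatory T cells, measured 11.9, 18.9 and 18.3 in Hopx-low cells and 3.31, 6.24 and 5.84 in naive cells (log2 fold change 1.51 ± 0.42 SE, adjusted p = 0.025). Both were higher in every Hopx-low library than in any naive one. For Pde2a, a phosphodiesterase that breaks down cyclic AMP and cyclic GMP, the Hopx-low libraries gave 16.4, 14.5 and 24.9, against 52.1, 66.1 and 65.9 in the naive libraries (log2 fold change -1.70 ± 0.30 SE, adjusted p = 0.00046). Adcy6, an adenylate cyclase that makes cyclic AMP, had levels of 122, 151 and 132 in Hopx-low libraries, against 257, 261 and 253 in naive libraries (log2 fold change -0.93 ± 0.18 SE, adjusted p = 0.0018). Pde2a, which removes cyclic AMP, and Adcy6, which makes it, were thus both lower. Gpr55, a receptor for lysophosphatidylinositol, rose by 2.40. In this list, of the 7 calls higher 1, and of the 5 calls lower 3, held whichever of the 9 libraries was left out. In the matrix and metalloprotease list, 4 of 36 rose (11.1%) and 2 fell (5.56%), against 4.75% and 3.64% of all features tested. The falls were Adamts14 and Adamts10, and the rises included Adam19, a membrane-bound metalloprotease. Adam19 measured 203, 261 and 239 in Hopx-low cells and 48.5, 30.7 and 44.4 in naive cells (log2 fold change 2.50 ± 0.21 SE, adjusted p = 9.3e-09). Adora2a (adjusted p up to 0.09 without naive 1 or 3 or Hopx-low 2 or 3) and Gpr83 (adjusted p up to 0.14 without naive 1 or Hopx-low 2 or 3) lost their calls when 1 library was left out. Channel, receptor and purine genes called higher numbered 1 without Hopx-low 2 or 3 or with replicates 1 and 2 alone and 2 without naive 1 or 3. Channel, receptor and purine genes called lower numbered 3 with replicates 1 and 2 alone.

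Of 70 DNA methylation and chromatin repression genes tested, 8 rose (11.4%), Hopx and Uhrf1 included, and 4 fell (5.71%). The shares of all features tested were 4.75% and 3.64%. For Dnmt3a, a de novo DNA methyltransferase, the Hopx-low libraries gave 248, 319.5 and 272, against 163, 110.0 and 158 in the naive libraries (log2 fold change 0.97 ± 0.19 SE, adjusted p = 0.0017). Kdm2b, a demethylase that recruits a Polycomb complex to CpG islands, had levels of 158, 261 and 260.2 in Hopx-low libraries, against 52.8, 63.7 and 58.3 in naive libraries (log2 fold change 1.91 ± 0.21 SE, adjusted p = 1.1e-06). Cbx2, a chromobox subunit of Polycomb complexes, measured 146, 142 and 131 in Hopx-low cells and 55.7, 65.8 and 60.6 in naive cells (log2 fold change 1.19 ± 0.20 SE, adjusted p = 0.00026). The groups of these 3 did not overlap. For Cbx7, another chromobox subunit, the Hopx-low libraries gave 140.0, 174 and 153, against 224, 309 and 213 in the naive libraries (log2 fold change -0.66 ± 0.19 SE, adjusted p = 0.032). Within the chromobox family, Cbx2 was thus higher and Cbx7 lower in Hopx-low cells. H2afx, the histone variant H2A.X, rose by 1.37. In this list, of the 8 calls higher 6, and of the 4 calls lower 1, held whichever of the 9 libraries was left out. In antigen presentation, 1 of 33 tested rose (3.03%) and 3 fell (9.09%). The rise was H2-Oa, the alpha chain of the DM inhibitor DO, by 3.13. Erap1, which trims peptides for class I molecules, was among the falls, with a log2 fold change of -1.22. Cbx7 (adjusted p up to 0.19 without naive 1 or 2 or Hopx-low 1 or 3) lost its call when 1 library was left out. DNA methylation and chromatin genes called lower numbered 1 without naive 1 or Hopx-low 1 or with replicates 1 and 2 alone and 2 without naive 2 or Hopx-low 3. Antigen presentation genes called lower numbered 1 without naive 3 or with replicates 1 and 2 alone.

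Genes that changed in the same direction also stood next to each other. Outside the histones there were 9 runs of 3 or more neighbouring tested genes called in 1 direction, 1 higher and 8 lower (RefSeq positions, GRCm38.p6). The run of rises was Cd5, A430093F15Rik and Cd6 (chr19:10718107-10830062): Cd5 and Cd6 encode related scavenger receptors that damp T cell receptor signals. Cd5 had levels of 435, 648 and 606 in Hopx-low libraries, against 189.9, 199 and 265 in naive libraries (log2 fold change 1.36 ± 0.18 SE, adjusted p = 1.6e-05). Cd6 measured 1049.9, 1168 and 1138 in Hopx-low cells and 475, 601 and 553 in naive cells (log2 fold change 1.05 ± 0.15 SE, adjusted p = 4.4e-05). For A430093F15Rik, a long noncoding RNA annotated between them, the Hopx-low libraries gave 21.5, 17.3 and 24.5, against 1.78, 1.72 and 3.06 in the naive libraries (log2 fold change 2.81 ± 0.36 SE, adjusted p = 1.0e-05). No gene of the run overlaps another in the annotation. Txk and Tec, adjacent kinase genes, formed a run of falls with Nipal1 (chr5:72647796-72868654), and S1pr1 formed one with A930005H10Rik and Dph5 (chr3:115710433-115934361). The ends of A930005H10Rik and Dph5 overlap in the annotation, so their coverage cannot be told apart there. Tec had levels of 2.40, 10.1 and 18.5 in Hopx-low libraries, against 29.6, 43.1 and 32.4 in naive libraries (log2 fold change -1.98 ± 0.46 SE, adjusted p = 0.0073). A930005H10Rik, a long noncoding RNA, measured 21.1, 38.2 and 36.0 in Hopx-low cells and 61.8, 94.7 and 56.4 in naive cells (log2 fold change -1.14 ± 0.28 SE, adjusted p = 0.011). The Ifit locus gave the longest run of falls, with Lipa, Ifit2, Ifit3, Gm14446 and I830012O16Rik (chr19:34492316-34662981). The other runs of falls held Gm12250, Igtp and Irgm2 on chromosome 11, Ly6a, Ly6c1 and Ly6c2 on chromosome 15, Fam211b, Ggt1 and Ggt5 on chromosome 10, Cept1, Dram2, Lrif1 and Cd53 on chromosome 3 and Gimap8, Gimap9 and Gimap4 on chromosome 6. Of the 30 genes in the 9 runs, 13 kept their call whichever of the 9 libraries was left out. A930005H10Rik (adjusted p up to 0.089 without naive 2 or Hopx-low 1) lost its call when 1 library was left out.

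Ribosomal depletion keeps RNAs without a poly(A) tail, and a few noncoding RNAs differed. Of 349 long noncoding RNAs tested, 5 rose (1.43%) and 8 fell (2.29%), both shares under those of all features tested. For Malat1, an abundant nuclear RNA, the Hopx-low libraries gave 2012, 2703 and 2430.5, against 6463, 5096 and 4075 in the naive libraries (log2 fold change -1.11 ± 0.25 SE, adjusted p = 0.01). Neat1, the RNA scaffold of paraspeckles, had levels of 149, 274 and 334 in Hopx-low libraries, against 403, 438 and 472 in naive libraries (log2 fold change -0.87 ± 0.24 SE, adjusted p = 0.027). Peg13, an imprinted RNA, measured 56.2, 121 and 123 in Hopx-low cells and 184, 229 and 187 in naive cells (log2 fold change -1.07 ± 0.25 SE, adjusted p = 0.0084). In each of these 3 the Hopx-low libraries all lay below the naive ones. Of these calls, 2 of the 5 and 1 of the 8 held whichever library was left out. Of 94 small nucleolar RNAs tested, 2 rose (2.13%) and 6 fell (6.38%), against 4.75% and 3.64% of all features tested. Of these calls, 2 higher and 2 lower held in the same way. For Snord82, a box C/D RNA that guides methylation of ribosomal RNA, the Hopx-low libraries gave 369, 184 and 195, against 86.8, 76.7 and 32.8 in the naive libraries (log2 fold change 1.95 ± 0.34 SE, adjusted p = 0.0015). Snord110, another RNA of that class, had levels of 316, 253 and 212 in Hopx-low libraries, against 107, 86.3 and 171 in naive libraries (log2 fold change 1.13 ± 0.23 SE, adjusted p = 0.0022). Snora23, a box H/ACA RNA that guides pseudouridylation, measured 199.6, 166 and 164 in Hopx-low cells and 539, 552 and 331 in naive cells (log2 fold change -1.39 ± 0.24 SE, adjusted p = 0.0004). Snora70, of the same class, had a log2 fold change of -1.16. Small nucleolar RNAs lie within introns of host genes, and the coverage of an RNA and its host cannot be told apart with certainty. For Rn4.5s, the rodent 4.5S RNA, a short noncoding transcript, the Hopx-low libraries gave 2780.4, 1688 and 2337, against 1041, 1007 and 1533 in the naive libraries (log2 fold change 0.92 ± 0.20 SE, adjusted p = 0.0044). Malat1 (adjusted p up to 0.095 without naive 1 or Hopx-low 1) and Neat1 (adjusted p up to 0.15 without naive 1, 2 or 3 or Hopx-low 1) lost their calls when 1 library was left out. Malat1 lost its call with quantile normalization or with totals without Lars2 (adjusted p up to 0.19). Snord82 lost its call with upper-quartile scaling or with quantile normalization (adjusted p up to 0.055). Rn4.5s lost its call with upper-quartile scaling (adjusted p = 0.057).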

How the data were processed

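Total RNA was extracted with Trizol and a mirVana kit, depleted of ribosomal RNA and sequenced on an Ion Torrent instrument, per the labels' protocols. The submitters' processing notes name bedtools and the mouse build mm10, with the aligner, gene annotation, strand setting and handling of multiply matching reads not given in the sources used here. The deposited values are a coverage signal per feature: divided by its smallest value, each column is whole within 1e-06, so the authors' values are taken as covered bases plus 1, scaled to a common library total. That scaling gives a feature without coverage a value set by depth, so it was undone, and levels are bases covered per 1000000 covered bases of the library.

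Of 23219 features, 11320 reached a level of 1 in at least 3 of the 9 total RNA libraries. They were tested as log2(level + 1) with limma 3.58.1 (R 4.3.3, trend and robust settings), all 9 libraries in 1 fit, at a Benjamini-Hochberg adjusted p below 0.05. The fit was also run on simulated levels with known changes. That simulation gave every feature the same dispersion and did not copy the uneven Lars2 share, so it does not cover the effect of either. Symbols of 11269 tested features matched RefSeq (GRCm38.p6), which gave positions and promoters. Summaries used Python 3.11.15 and pandas 2.3.3. Covered bases of 1 read are not independent, so no counting interval is given.

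Named genes are Hopx, the largest non-overlapping rises and falls above and below the median level, up to 8 members of every list by smallest adjusted p, members of runs, and defining factors of a list whatever their result. The members and the lists were chosen with earlier results of these data known, and where a gene falls outside that rule it was chosen after its values were seen. Alternatives changed the scaling, the model, the filter, the pseudocount, the threshold and the libraries in the fit. Small RNA libraries were not analysed here.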

Additional observations from a re-analysis of the deposited data

How the results depend on the processing

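Calls lower depended more on the processing than calls higher. Against 950 calls in all, 538 higher and 412 lower, the calls lower were 268 on the deposited scale, 255 with no filter on low levels and 208 without both Lars2-rich libraries (Hopx-low replicate 1 and Hopx-high replicate 3). Without the trend and robust settings 614 features were called, 184 of them lower, and in a test against a fold of 1.2 these counts were 522 and 151. At adjusted p below 0.01 they were 517 and 150, and at adjusted p below 0.1 the calls lower numbered 699. With replicates 1 and 2 alone 497 were called, 322 higher and 175 lower, and 253 of the 330 named calls remained. Leaving out 1 library at a time gave 576 to 1169 calls in all, 395 to 576 higher and 174 to 593 lower. The cause of these moves was not tested. Over all features, the count in all and the calls higher stayed within 1.5 times the values above under each other scaling, filter and pseudocount. Among the lists of genes with 3 or more calls, another scaling moved some counts of calls higher further: ribosome biogenesis had 8 with upper-quartile scaling, 10 with quantile normalization and 9 with totals without Lars2 (3 above), quiescence factors and the Wnt, Notch, Hedgehog and TGF-beta list 5 each under all 3 (3 above). With quantile normalization glycolysis had 14 (8 above), the G1 regulators 8 (4 above) and cytokine receptors 7 (4 above).

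Deviations from the group means of same-numbered Hopx-low and naive libraries correlated at -0.053, -0.089 and 0.055. These small values cannot exclude a pairing, since same-numbered libraries shared the Xist and Ddx3y pattern. With the replicate number as a block 970 features were called, 538 higher and 432 lower, and 899 of the 950 calls were shared.

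Quantile normalization moved the median log2 fold change of all tested features to -0.056, from -0.163, a shift of 0.107. Of the 330 named calls, 192 held in all 23 settings that refit the genes, 138 were lost in at least 1, and 0 changed direction. The list medians changed sign under another scaling for the DNA methylation and chromatin, the chaperone and the lipid lists. At n = 3 with unequal depth, small differences are not resolved. Before adjustment 2612 of the 11320 features tested had a limma p below 0.05, and 950 were called after it.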
